A study of Mus musculus with 12 samples.

Results

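Csf1, Hbegf, F2rl1 and Paqr8, 4 genes that were near absent in stage 0 and high in stage 1 invariant natural killer T (iNKT) cells were followed across 12 RNA-seq libraries. They are 4 of the 48672 Ensembl gene IDs counted, were listed by symbol, and were picked because their level at stage 1 stood far above that at stage 0 in these same libraries. The stage difference of these 4 genes is therefore given as a description and carries no test. iNKT cells were sorted from the thymus as cells that bound the lipid-loaded tetramer and carried the T cell receptor beta chain. Stage 1 cells were CD24 negative and CD44 negative, and stage 0 cells were CD24 positive and CD44 negative. The 4 groups, with 3 libraries each, were stage 1 Bcl6KO, stage 1 wild type (WT), stage 0 Bcl6KO and stage 0 WT. All mice were C57Bl/6J, 4 to 5 weeks old and untreated, and thymi of 4 to 7 mice were pooled. Bcl6KO mice are given in the labels as CDCre;Bcl6F/F, a Cre transgene with both Bcl6 alleles floxed; the sources used here give neither the promoter behind that Cre in full nor the deleted exons. It is not stated whether each library of a group is a pool of its own. The p-values are thus set by how far these libraries scatter, and that scatter may be in part technical.

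iNKT cells are T cells whose receptor uses an invariant alpha chain and recognises lipids. They are selected on double-positive thymocytes, and stage 0 is the earliest step after selection, while stage 1 cells have lost CD24 and not yet gained CD44. The 4 genes belong to different systems. Csf1 encodes macrophage colony-stimulating factor, the secreted or membrane-bound ligand of the receptor Csf1r on macrophages and their precursors. Hbegf encodes heparin-binding EGF-like growth factor, a membrane-anchored ligand of EGF receptors that metalloproteases release from the cell surface. F2rl1 encodes protease-activated receptor 2, a G protein-coupled receptor that trypsin-like proteases switch on by cutting its extracellular end. Paqr8 encodes a membrane progestin receptor of the progestin and adipoQ receptor family.

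The sequences just upstream of the genes are shown because the 4 genes differ together between the stages and because the study deletes Bcl6, a DNA-binding repressor. On build mm10 (GRCm38), Csf1 lies at chr3:107741048-107760469 on the minus strand and Paqr8 at chr1:20890606-20939650 on the plus strand. The windows below hold the 250 bases before a start annotated by RefSeq on GRCm38.p6, written 5′ to 3′ on the gene's strand, with capitals where a searched motif matched. They lie at chr3:107760470-107760719 for Csf1, and chr1:20890298-20890547 and chr1:20917590-20917839 for the first and second start of Paqr8.
Csf1: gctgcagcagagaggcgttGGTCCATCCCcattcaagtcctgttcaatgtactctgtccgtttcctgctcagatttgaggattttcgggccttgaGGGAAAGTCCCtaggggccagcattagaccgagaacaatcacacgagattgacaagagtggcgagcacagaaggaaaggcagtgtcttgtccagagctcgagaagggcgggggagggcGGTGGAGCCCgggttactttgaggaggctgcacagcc
Paqr8 window 1: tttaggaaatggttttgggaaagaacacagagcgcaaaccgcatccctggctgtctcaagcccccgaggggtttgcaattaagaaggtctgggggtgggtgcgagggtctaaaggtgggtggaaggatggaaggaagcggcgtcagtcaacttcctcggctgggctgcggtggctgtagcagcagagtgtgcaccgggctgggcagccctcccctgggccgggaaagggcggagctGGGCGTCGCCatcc
Paqr8 window 2: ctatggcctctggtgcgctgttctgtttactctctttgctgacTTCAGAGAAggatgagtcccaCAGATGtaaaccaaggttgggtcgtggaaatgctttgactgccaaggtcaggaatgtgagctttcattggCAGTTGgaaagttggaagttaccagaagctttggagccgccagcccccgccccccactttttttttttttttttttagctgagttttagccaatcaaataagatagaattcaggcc

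The motifs searched numbered 5, each on both strands: TTCNNNGAA, the core bound by BCL6 and STAT factors, GCGNGGGCG for EGR factors, TGANTCA for AP-1, CANNTG, the E-box, and an NF-kB motif of 3 G, any 5 bases and 2 C. The Csf1 window held 4 matches to the NF-kB motif, of which the pair at bases -155 and -154 overlaps on opposite strands. Window 1 of Paqr8 held 1 such match, at -14. Of the 32851 windows of this length searched, which leave out the chromosome of Hbegf, 45.8% hold at least 1 match to that motif. The share that holds as many as 4 was not counted. TTCNNNGAA, which 7.0% of all windows hold, matched once, at -207 of window 2 of Paqr8, beside E-boxes at -186 and -116 (66.2% of all windows). The EGR and AP-1 motifs, held by 4.7% and 6.7% of all windows, had no match in these 3 windows. The Csf1 window is 56.4% G or C, and the Paqr8 windows 62.0% and 46.0%, against a median of 52.4% over all windows. A match describes letters in a window and does not show binding.

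F2rl1 lies at chr13:95511732-95525227 and Hbegf at chr18:36504927-36515805, both on the minus strand, and no exonic base of the 4 genes is covered by another annotated gene. Total counts ran between 4129919 and 8038717 per library, and 3 counts, taken as the limit of detection, equalled 0.569 to 0.615 CPM, the counts of a gene scaled by the normalised depth of its library, the unit used throughout. All 4 genes passed the filter on low counts that left 15704 genes for testing. Cd24a followed its gate: it averaged 1.33 ± 0.498 CPM in stage 1 Bcl6KO and 5.84 ± 6.93 CPM in stage 1 WT cells, against 242 ± 81.1 CPM in stage 0 Bcl6KO and 167 ± 15.7 CPM in stage 0 WT cells (SD, n = 3 each). Cd44, gated negative at both stages, averaged 16.4 ± 8.52 CPM in stage 1 Bcl6KO and 15 ± 11.8 CPM in stage 1 WT cells, against 1.09 ± 0.792 CPM in stage 0 Bcl6KO and 4.73 ± 4.02 CPM in stage 0 WT cells. The libraries were uneven: 19181 to 21144 genes were detected in stage 1 Bcl6KO, 20953 to 22028 in stage 1 WT, 14860 to 17734 in stage 0 Bcl6KO and 18417 to 21607 in stage 0 WT libraries. A single gene, Sp100, took 10.8% to 23.9% of the counts of stage 0 Bcl6KO libraries and at most 5.03% of any other. In bulk RNA of sorted cells, fewer cells expressing a gene and less RNA per cell cannot be told apart.

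Csf1 was near absent at stage 0 and well expressed at stage 1 in both genotypes. It had 88.2, 37.8 and 98.8 CPM in stage 1 Bcl6KO cells, and 96.2, 8.09 and 104 CPM in stage 1 WT cells. At stage 0 it had 7, 0 and 0 counts in Bcl6KO cells (1.4 CPM in the first library) and 0, 2 and 2 counts in WT cells. The stage 1 and stage 0 libraries did not overlap in either genotype, and the second WT library stood apart among the stage 1 libraries, far below its fellows. Over summed counts scaled by depth, the ratio of stage 1 to stage 0 was 164 in Bcl6KO cells (95% interval 79.5 to 409.8) and 262 in WT cells (102 to 962); these exact Clopper-Pearson intervals cover counting error only, and the libraries differ by more than that.

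Hbegf, the other growth factor, had the lowest stage 1 level of the 4 genes per kilobase of exons. It had 10.9, 9.54 and 24.8 CPM in stage 1 Bcl6KO cells, and 17.3, 3.95 and 3.28 CPM in stage 1 WT cells. At stage 0 not a single count was seen in the 3 Bcl6KO libraries, which allows up to 0.586 CPM, and the WT libraries held 2, 0 and 1 counts. With stage 0 set at the limit of 3 counts per library, Hbegf was at least 25.7-fold higher at stage 1 in Bcl6KO cells. In WT cells the ratio of summed counts was 41.6 (13.9 to 205, counting error only), and the first stage 1 library carried much of it: the stage 1 WT mean was 8.19 ± 7.93 CPM with it and 3.58 CPM without it.

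Both receptors showed the same division between the stages. F2rl1 had 14.3, 161 and 109 CPM in stage 1 Bcl6KO cells, and 11, 23.9 and 57.8 CPM in stage 1 WT cells. At stage 0 it had 0, 3 and 2 counts in Bcl6KO cells and 2, 2 and 3 counts in WT cells. No stage 0 library exceeded the limit of detection, while the stage 1 libraries spread more than 10-fold in Bcl6KO cells. The ratio of summed counts was 292 in Bcl6KO cells (125 to 899.6) and 66.4 in WT cells (32.0 to 166). These intervals cover counting error only, not the spread of the libraries, and are no test. One library decided much of either stage 1 mean, which was 95 CPM in Bcl6KO cells and 61.9 CPM without the second library, and 30.9 CPM in WT cells and 17.4 CPM without the third.

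Paqr8 varied least among the libraries of a stage 1 group, relative to its mean. It had 27.2, 45.9 and 42.5 CPM in stage 1 Bcl6KO cells, and 11.4, 5.73 and 15.6 CPM in stage 1 WT cells. At stage 0 it had 1, 0 and 0 counts in Bcl6KO cells and 1 count in each WT library. The stage groups lay far apart in both genotypes, and within stage 1 the Bcl6KO libraries all lay above the WT libraries. The ratio of summed counts was 592 in Bcl6KO cells and 54.8 in WT cells (18.4 to 269, counting error only). The interval in Bcl6KO cells, 106 to 23426, also covers counting error only and shows how little a single stage 0 count fixes.

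**Figure D1:**
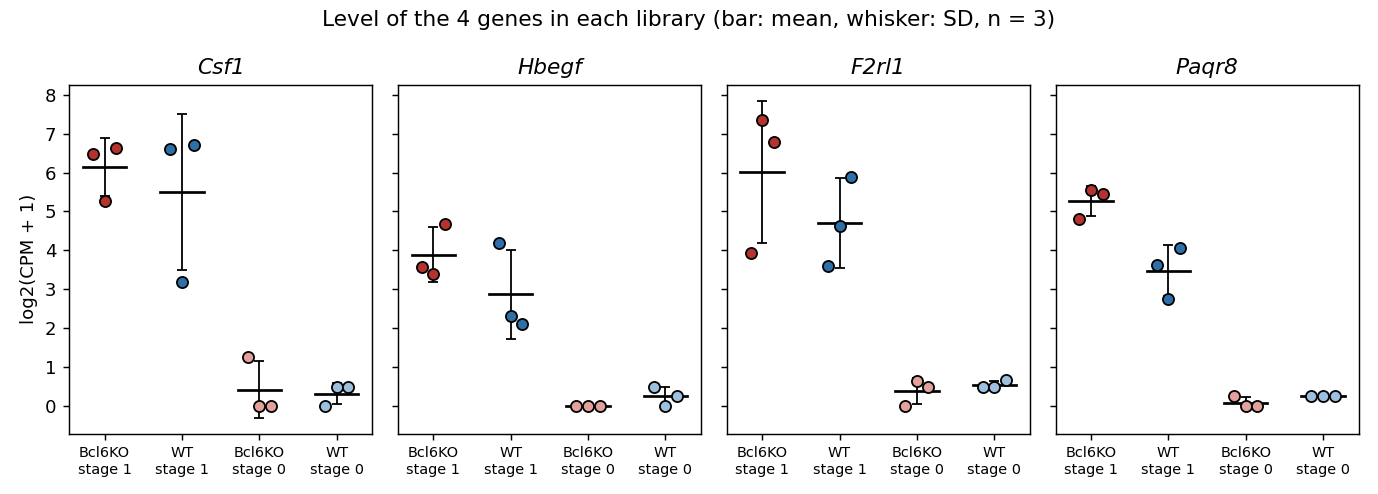
Level of each gene in every library, as log2 of CPM plus 1 on the vertical axis, with the mean (bar) and SD (whisker) of the 3 libraries of a group. All 6 stage 1 libraries lie above all 6 stage 0 libraries for each of the 4 genes, and the highest stage 0 value, of Csf1, is 1.4 CPM.

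For all 4 genes, the 6 stage 1 libraries lay above the 6 stage 0 libraries, a pattern that 297 of the 15704 genes tested (1.89%) share. Taken within each genotype, 3.29% of genes had stage 1 above stage 0 without overlap in both. Since the genes were chosen on this contrast, the count carries no weight beyond describing them. A stricter division, chosen after the values were seen, asked for more than 3 counts in every stage 1 library and at most 3 in every stage 0 library. It was met by 13 of 15704 genes (0.0828%), and F2rl1, Paqr8 and Hbegf were among them. Csf1 missed it through the 7 counts of 1 stage 0 Bcl6KO library. Of the other genes, Phldb1 averaged 16.4 CPM, Gpat3 8.63 CPM, Smpdl3b 4.66 CPM and Prrt2 4.61 CPM at stage 1; Gpat3 encodes an acyltransferase of triglyceride synthesis. The opposite division, present at stage 0 and near 0 at stage 1, was met by 6 genes (0.0382%), none of them among the 4.

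Per kilobase of exons, the level at stage 1 in Bcl6KO cells ran 34.6 ± 27.2 CPM for F2rl1, 14.2 ± 6.18 for Csf1, 7.02 ± 1.82 for Paqr8 and 3.12 ± 1.74 for Hbegf (SD, n = 3). Each gene in that order overlapped its neighbour in single libraries. In WT cells the order was 13.1 ± 10.1 CPM for Csf1, 11.3 ± 8.83 for F2rl1, 1.98 ± 0.902 for Paqr8 and 1.69 ± 1.64 for Hbegf. There F2rl1 stood clear of Paqr8, while Csf1 and F2rl1, and Paqr8 and Hbegf, overlapped. At stage 0, none of the 4 genes had a level to rank.

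None of the 4 genes passed the threshold between Bcl6KO and WT cells at stage 1, the stage at which they had a level to compare. This contrast was not used to choose the genes, although the libraries are shared with the choice. Over all genes at stage 1, edgeR's quasi-likelihood test with Benjamini-Hochberg adjustment called 0 of 15704 (0%); 404 (2.57%) had an unadjusted p under 0.05, and DESeq2 called 20. Paqr8 averaged 38.6 ± 9.96 CPM in Bcl6KO and 10.9 ± 4.95 CPM in WT cells (SD, n = 3 each), with a log2 fold change of 1.82 (SE 0.85, 95% interval -0.01 to 3.66) and an unadjusted edgeR p of 0.0516, or 1 after adjustment. All 3 Bcl6KO libraries lay above the 3 WT libraries, which 922 genes (5.87%) also showed. F2rl1 averaged 95 ± 74.6 CPM in Bcl6KO and 30.9 ± 24.2 CPM in WT cells, and its log2 fold change of 1.62 (SE 0.90, interval -0.31 to 3.55) did not pass either (edgeR adjusted p = 1). Its libraries overlapped, and the fold change ran between 1 without the second Bcl6KO library and 2.44 without the third WT library.

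The libraries of the remaining 2 genes overlapped between the genotypes at stage 1 too. Csf1 averaged 74.9 ± 32.6 CPM in Bcl6KO and 69.4 ± 53.3 CPM in WT cells (log2 fold change 0.11, interval -2.14 to 2.36). Hbegf averaged 15.1 ± 8.41 CPM in Bcl6KO and 8.19 ± 7.93 CPM in WT cells (log2 fold change 0.88, interval -1.66 to 3.42). Without the first WT library, the highest of its group, the fold change of Hbegf was 2.05, and over all fits that left out 1 library it was at least 0.31. Both had an edgeR adjusted p of 1. The intervals show what the design could and could not see: for Csf1 a 4-fold change in either direction lies inside.

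**Figure D2:**
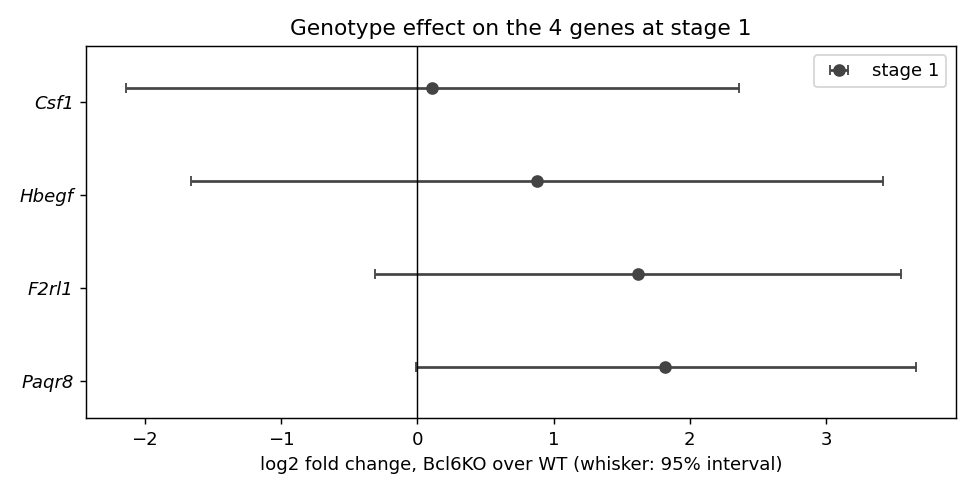
Log2 fold change of Bcl6KO over WT with its 95% interval (horizontal axis) for the 4 genes at stage 1. Every interval includes 0, Paqr8 barely so with -0.01 to 3.66, and that of Hbegf is the widest, at -1.66 to 3.42.

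At stage 0 the 4 genes had group means under the limit of 3 counts in both genotypes, and they passed the filter on low counts through their stage 1 libraries. No genotype effect at stage 0, and no difference between the effects at stage 1 and stage 0, can therefore be read for them, and their fitted values are not used. Over all genes, edgeR called 3 of 15704 (0.0191%) between Bcl6KO and WT cells at stage 0, and 2309 (14.7%) had an unadjusted p under 0.05. DESeq2 called 924 there, and edgeR called 133 without the first Bcl6KO stage 0 library. Bcl6KO libraries lay above WT libraries without overlap for 4.67% of all genes at stage 0, and below them for 7.95%. For the difference between the stages edgeR called 0 of 15704 genes (0%), with 1221 (7.78%) at an unadjusted p under 0.05 and 130 called by DESeq2.

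Each gene was then set beside its relatives, 56 genes in 4 lists by family and pathway, of which 33 passed the filter on low counts. Between stage 1 and stage 0 in Bcl6KO cells, 1 of the 33 was called, as lower at stage 1, and 8 had an unadjusted p under 0.05. DESeq2 called 6 of the 33 there, and a fit of only these 2 groups called 0. Over all genes edgeR called 106 there (0.675%), 66 higher (0.420%) and 40 lower (0.255%), with 16.4% at an unadjusted p under 0.05, and DESeq2 called 1309. In WT cells edgeR called 0 of the 33, 4 had an unadjusted p under 0.05, and DESeq2 called 1. Over all genes 68 were called there (0.433%), 11 higher (0.0700%) and 57 lower (0.363%), with 8.40% at an unadjusted p under 0.05, and DESeq2 called 368. Between the genotypes none of the 33 was called, with 1 at an unadjusted p under 0.05 at each stage. The median log2 fold change over the 33, stage 1 over stage 0, was 0.07 in Bcl6KO and 0.26 in WT cells, beside 0.01 in Bcl6KO and 0 in WT cells over all genes tested. None of the 33 was among the 13 genes that met the strict division, which was sought only among genes that passed the filter.

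Csf1 had 4 tested relatives, all receptor genes, with a median log2 fold change of -0.34 between the stages in Bcl6KO and 0.73 in WT cells. The receptor for the Csf1 protein, Csf1r, stayed at a low level throughout, averaging 7.17 ± 2.61 CPM in stage 1 Bcl6KO and 7.43 ± 0.655 CPM in stage 1 WT cells, against 6.71 ± 5.73 CPM in stage 0 Bcl6KO and 4.74 ± 1.23 CPM in stage 0 WT cells. Of its exonic bases 15.1% are covered by another gene, whose reads may be counted with it. Il34, the second ligand of that receptor, did not pass the filter, nor did Csf2 or Csf3. Csf3r had the highest level among these relatives. It encodes the granulocyte colony-stimulating factor receptor and averaged 53.1 CPM in stage 1 Bcl6KO and 38.2 CPM in stage 1 WT cells, against 61.9 CPM in stage 0 Bcl6KO and 56.4 CPM in stage 0 WT cells. Csf2ra, a receptor subunit for granulocyte-macrophage colony-stimulating factor, ranged from 0.569 to 47.9 CPM within the stage 0 Bcl6KO libraries alone.

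Hbegf had 11 tested relatives, and the called gene was one of them. Adam12, a metalloprotease known to shed HB-EGF from the cell surface, had 2.98, 13.9 and 8.98 CPM in stage 1 Bcl6KO cells, against 54.7, 153 and 97.3 CPM in stage 0 Bcl6KO cells. At stage 1 in Bcl6KO cells it fell by 3.56 on the log2 scale (SE 0.66, edgeR adjusted p = 0.0326). In WT cells it had 18.1, 22.1 and 12.5 CPM at stage 1 against 40.7, 67.5 and 76.4 CPM at stage 0, with no overlap either, but its log2 fold change of -1.81 (SE 0.61) did not pass (edgeR adjusted p = 0.379). The share of all genes that lay lower at stage 1 without overlap was not counted. The difference between the 2 genotypes' changes was not called (-1.75, SE 0.85, edgeR adjusted p = 0.659). The call in Bcl6KO cells was lost in 8 of the 12 fits that left out 1 library, namely without any 1 of the 6 stage 1 libraries and without the second or the third stage 0 Bcl6KO library. Over the 12 fits the adjusted p ran between 0.0203 and 0.131, and it was 0.182 in a fit of only these 2 groups.

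Adam17, the main sheddase of EGF ligands, was more abundant and did not pass in either genotype, at 83.9 ± 38.5 CPM in stage 1 Bcl6KO and 95.5 ± 17.0 CPM in stage 1 WT cells, against 104 ± 62.1 CPM in stage 0 Bcl6KO and 203 ± 182 CPM in stage 0 WT cells. Adam10, a further metalloprotease listed, averaged 84.4 ± 5.52 CPM in stage 1 Bcl6KO and 123 ± 25.5 CPM in stage 1 WT cells. Its stage 0 means were 47.2 ± 12.8 CPM in Bcl6KO and 57.9 ± 28.2 CPM in WT cells. Stage 1 lay above stage 0 without overlap in both genotypes, as for 3.29% of all genes. Neither contrast of Adam10 passed (edgeR adjusted p = 0.351 in Bcl6KO and 0.475 in WT cells). The most abundant EGF family ligand was not Hbegf but Nrg4, a neuregulin, which was present at both stages: 53.4 ± 23.3 CPM in stage 1 Bcl6KO and 66.3 ± 34.1 CPM in stage 1 WT cells, against 135 ± 103 CPM in stage 0 Bcl6KO and 60.1 ± 47.7 CPM in stage 0 WT cells. Of the exonic bases of Nrg4, 8.97% are covered by another gene. Areg, Ereg, Btc, Tgfa and Epgn, the other EGF receptor ligands listed apart from Egf, did not pass the filter. Btc still had 44.9 CPM in the second stage 0 Bcl6KO library and 3.79 CPM in the third stage 1 Bcl6KO library. Egfr itself averaged 3.58 ± 2.62 CPM in stage 1 Bcl6KO and 4.47 ± 1.12 CPM in stage 1 WT cells, against 5.87 ± 3.09 CPM in stage 0 Bcl6KO and 5.86 ± 2.14 CPM in stage 0 WT cells. Csf1r, Adam10, Egfr and, among the relatives described next, F2rl2, Paqr7 and Paqr3 were chosen after their values were seen.

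F2rl1 sits on chromosome 13 near 2 other protease-activated receptor genes, F2r at chr13:95601803-95618487 and F2rl2 at chr13:95696853-95702739. F2r, the thrombin receptor, was the relative of F2rl1 with the highest mean level. It had 81.4, 54.7 and 117 CPM in stage 1 Bcl6KO cells and 151, 144 and 215 CPM in stage 1 WT cells. At stage 0 it had 20, 9.67 and 18.7 CPM in Bcl6KO cells and 9.94, 52.4 and 19.5 CPM in WT cells. Stage 1 lay above stage 0 without overlap in both genotypes, as for 3.29% of all genes. Yet the log2 fold changes of 2.39 (SE 0.59, edgeR adjusted p = 0.0831) in Bcl6KO and 2.64 (SE 0.60, adjusted p = 0.0875) in WT cells both missed the threshold. Unlike F2rl1, F2r was clearly present at stage 0, and at stage 1 it was lower in Bcl6KO than in WT cells in every library, as were 7.44% of all genes, though not past the threshold (log2 fold change -1.01, SE 0.57, edgeR adjusted p = 1). F2rl2 ranged from 6.76 to 95.7 CPM within stage 0 WT libraries and showed no steady order. F2rl3, a further protease-activated receptor, did not pass the filter. It had 1.39, 5.37 and 0 CPM in stage 1 Bcl6KO cells. In stage 1 WT cells it had 2.39, 1.58 and 0.82 CPM, and no stage 0 library held a count. Of the clotting cascade genes listed, F2, F3 and F7 did not pass the filter either. Arrb1, a beta-arrestin that binds activated receptors, averaged 118 ± 61.4 CPM in stage 1 Bcl6KO and 65.1 ± 24.8 CPM in stage 1 WT cells, against 32.6 ± 37.2 CPM in stage 0 Bcl6KO and 61.9 ± 22.8 CPM in stage 0 WT cells, and did not pass in either genotype.

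Paqr8 had 8 tested relatives with a median log2 fold change of -0.17 between the stages in Bcl6KO and -0.12 in WT cells. Adipor2, an adiponectin receptor with the highest mean CPM of them before scaling for length, was close between the stages: 97.5 ± 59.4 CPM in stage 1 Bcl6KO and 63.5 ± 15.1 CPM in stage 1 WT cells, against 92.6 ± 25.0 CPM in stage 0 Bcl6KO and 60.1 ± 21.6 CPM in stage 0 WT cells. Mmd, the next in mean CPM, had 21.5% of its exonic bases covered by another gene and did not pass in either genotype. The closest receptor in kind, Paqr7, another membrane progestin receptor, had 19.5, 121 and 14.4 CPM in stage 1 Bcl6KO cells and 13.2, 10.3 and 10.3 CPM in stage 1 WT cells. Against these, stage 0 held 5.79, 3.79 and 8.07 CPM in Bcl6KO and 38.4, 11.4 and 4.72 CPM in WT cells. The stages overlapped in WT cells. In Bcl6KO cells stage 1 lay above stage 0 without overlap, as for 11.8% of all genes. Neither contrast passed (edgeR adjusted p = 0.148 in Bcl6KO and 0.933 in WT cells), nor did the difference between them (3.82 on the log2 scale, SE 1.35, edgeR adjusted p = 0.538). Paqr3, with 15.7% of its exonic bases covered by another gene, was lower on average at stage 1 in both genotypes. It had 0.199, 0 and 1.4 CPM in stage 1 Bcl6KO and 1.59, 1.18 and 1.64 CPM in stage 1 WT cells. Stage 0 held 4.39, 31.3 and 11.6 CPM in Bcl6KO and 11.9, 0.788 and 26 CPM in WT cells. The log2 fold changes of -4.83 in Bcl6KO and -3.11 in WT cells did not pass (edgeR adjusted p = 0.15 and 0.582). Pgr, the nuclear progesterone receptor, did not pass the filter.

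**Figure D3:**
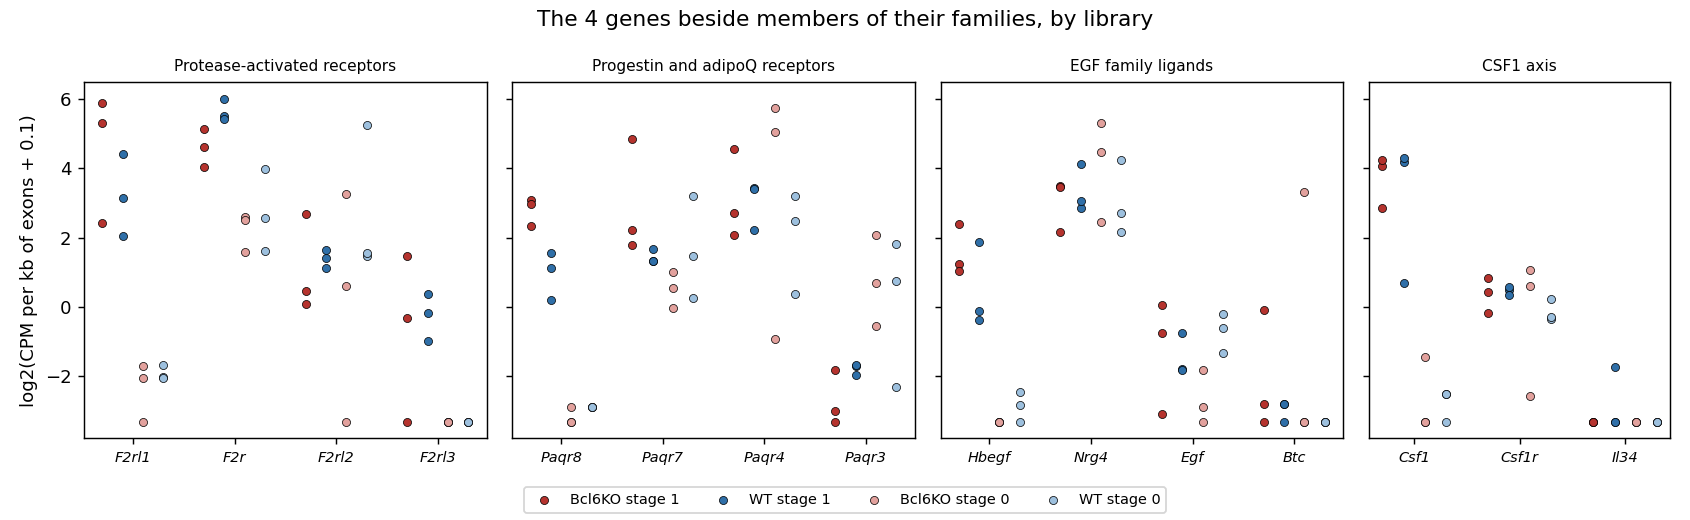
The 4 genes and members of their families in every library, as log2 of CPM per kilobase of exons plus 0.1 (vertical axis), coloured by group. F2r is high at stage 1 with a lower level at stage 0, Nrg4 is present at both stages, and Csf1, Hbegf, F2rl1 and Paqr8 lie at the bottom of the scale at stage 0.

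Across the 12 libraries, the genes whose level was most like that of each of the 4 were sought among 9523 genes with a mean of at least 5 CPM, by Pearson's r of log2 CPM. All genes were read in the same libraries, which differ by stage, so r mainly restates the stage difference and is a description. Paqr8 appeared for each of the other 3 genes, with r of 0.96 to Csf1, F2rl1 and Hbegf. Its own closest gene was Phldb1 (r = 0.98), which had 9.73, 45.5 and 25.4 CPM in stage 1 Bcl6KO and 7.77, 1.58 and 8.20 CPM in stage 1 WT cells, against at most 0.394 CPM in any stage 0 library. Tbc1d32 stood close to Csf1 (r = 0.95), with 9.14, 9.14 and 8.19 CPM in stage 1 Bcl6KO and 13.7, 5.92 and 13.9 CPM in stage 1 WT cells, against at most 0.591 CPM in any stage 0 library. Esyt1, an extended synaptotagmin, also stood close to Csf1 (r = 0.93) but kept a level at stage 0, averaging 214 CPM over the stage 1 libraries and 28.9 CPM over the stage 0 libraries. Smtn, the cytoskeletal protein smoothelin, stood close to F2rl1 (r = 0.95), with 21.5, 49.1 and 76.5 CPM in stage 1 Bcl6KO and 35.7, 37.1 and 45.9 CPM in stage 1 WT cells, against at most 6.50 CPM at stage 0. Hrh4, the histamine H4 receptor, stood close to Hbegf (r = 0.93). It had 3.77, 12.3 and 31.1 CPM in stage 1 Bcl6KO and 10.4, 3.16 and 0.205 CPM in stage 1 WT cells. The last of these lay under the limit of detection, and no stage 0 library exceeded 0.197 CPM.

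**Figure D4:**
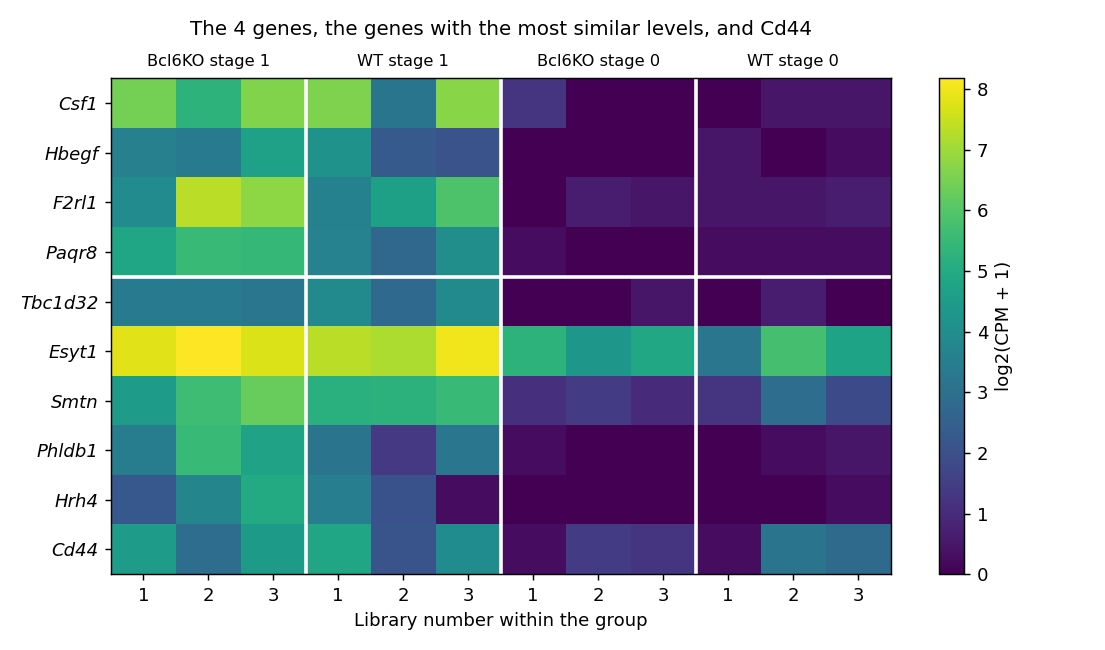
Colour gives log2 of CPM plus 1 in each library (columns, by group) for the 4 genes (above the white line) and for the genes with the most similar levels and Cd44 (below it). Tbc1d32 and Phldb1 are as dark at stage 0 as Csf1, Hbegf, F2rl1 and Paqr8, while Esyt1 keeps a level there.

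Within stage 1, the 6 pairs of the 4 genes differed in how closely they varied over the 6 libraries of both genotypes. F2rl1 and Paqr8 had r = 0.65 (Spearman's rho 0.71). Both averaged higher in Bcl6KO than in WT cells, and a genotype difference that genes share enters these pooled values. Paqr8 and Hbegf had r = 0.55 (rho 0.31), Csf1 and Paqr8 0.53 (rho 0.14), and Csf1 and Hbegf 0.49 (rho 0.14). The lowest values were those of F2rl1 with Hbegf (r = 0.03, rho -0.14) and with Csf1 (r = 0.01, rho 0.03). With Cd44, the activation marker, r was 0.93 for Csf1 (rho 0.49), 0.62 for Hbegf (rho 0.66), 0.35 for Paqr8 (rho 0.03) and -0.27 for F2rl1 (rho -0.60). Cd44 had 21.7, 6.56 and 21.0 CPM in stage 1 Bcl6KO and 26.9, 3.36 and 14.8 CPM in stage 1 WT cells, against 0.200, 1.71 and 1.38 CPM in stage 0 Bcl6KO and 0.199, 7.88 and 6.10 CPM in stage 0 WT cells. The second library was the lowest for both Csf1 and Cd44 in either genotype at stage 1, and what part Cd44 has in the level of Csf1 was not tested.

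Markers of other cells were read because Csf1, Hbegf and F2rl1 are also genes of myeloid, mast and stromal cells. The 11 macrophage and myeloid markers summed to 26.8 to 98.4 CPM in stage 1 Bcl6KO and 10.9 to 63.8 CPM in stage 1 WT libraries, against 15.2 to 93.6 CPM in stage 0 Bcl6KO and 17.9 to 41.7 CPM in stage 0 WT libraries, and Fcgr1 and Cd14 were at 0 in all 12 libraries. Itgam, on that list, had 12.1, 54.3 and 48.3 CPM in stage 1 Bcl6KO and 2.19, 0 and 51.1 CPM in stage 1 WT cells, against 43.7, 2.09 and 0.394 CPM in stage 0 Bcl6KO and 0, 0.197 and 8.66 CPM in stage 0 WT cells. The 5 mast cell markers summed to 0.398 to 17.9 CPM in stage 1 Bcl6KO and 0.197 to 2.05 CPM in stage 1 WT libraries, against 0 to 13.4 CPM in stage 0 Bcl6KO and 0 to 2.17 CPM in stage 0 WT libraries, with Fcer1a and Mcpt4 at 0 throughout. Kit, on that list, had 17.5, 0.199 and 16 CPM in stage 1 Bcl6KO cells against 0 counts in the 3 stage 0 Bcl6KO libraries, and at most 1.38 CPM in any WT library. Of the 8 epithelial and stromal markers, Krt5, Krt8 and Pdgfra were at 0 throughout, and the sum was 147 to 210.4 CPM in stage 1 Bcl6KO and 124 to 148 CPM in stage 1 WT libraries, against 171 to 1537 CPM in stage 0 Bcl6KO and 147 to 207 CPM in stage 0 WT libraries. Most of the epithelial and stromal sum was Pecam1, at 133 ± 35.4 CPM in stage 1 Bcl6KO and 106 ± 12.5 CPM in stage 1 WT cells. At stage 0 Pecam1 averaged 596 ± 733 CPM in Bcl6KO cells, with 1441 CPM in the second library, and 123 ± 50.6 CPM in WT cells. Psmb11 followed, with group means between 24.6 and 37.9 CPM. The myeloid, mast cell and stromal sums overlapped between the stages in both genotypes. The part of Itgam, Kit and Pecam1 in the levels of the 4 genes was not tested.

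The summed double-positive thymocyte and B cell markers were lower at stage 1, the first sum with overlap in WT cells. The 8 double-positive thymocyte markers summed to 446 to 973 CPM in stage 1 Bcl6KO and 202 to 590.1 CPM in stage 1 WT libraries, against 1327 to 1405 CPM in stage 0 Bcl6KO and 539.9 to 1629.8 CPM in stage 0 WT libraries. Most of the stage 1 sum was Cd4, which averaged 725 ± 269 CPM in stage 1 Bcl6KO and 376 ± 197 CPM in stage 1 WT cells, against 604 ± 75.3 CPM in stage 0 Bcl6KO and 221 ± 77.3 CPM in stage 0 WT cells. Rag1, of the recombinase that double-positive thymocytes use, averaged 0.132 ± 0.115 CPM in stage 1 Bcl6KO and 3.11 ± 2.52 CPM in stage 1 WT cells. At stage 0 it averaged 199 ± 121 CPM in Bcl6KO and 226 ± 234 CPM in WT cells. Rag2, Dntt and Cd8a averaged under 3 CPM at stage 1. Arpp21 averaged 26.9 CPM in stage 1 Bcl6KO and 0.4 CPM in stage 1 WT cells, against 270.5 CPM in stage 0 Bcl6KO and 250.3 CPM in stage 0 WT cells. Cd8b1 averaged 8.29 CPM in Bcl6KO and 6.23 CPM in WT cells at stage 1, against 94.7 and 49.8 CPM at stage 0. For Ptcra these means were 6.97 and 4.81 CPM at stage 1, against 8.87 and 7.96 CPM at stage 0. The 6 B cell markers summed to 3.18 to 8.98 CPM in stage 1 Bcl6KO and 1.38 to 4.78 CPM in stage 1 WT libraries, against 18.7 to 169 CPM in stage 0 Bcl6KO and 6.69 to 57.4 CPM in stage 0 WT libraries. The 8 iNKT and T cell markers were high in every group, at 1904 to 2576 CPM in stage 1 Bcl6KO and 2195 to 3417 CPM in stage 1 WT libraries, against 2397 to 3348 CPM in stage 0 Bcl6KO and 2097 to 2744 CPM in stage 0 WT libraries. The part of the double-positive and B cell lists, and of the number of genes detected, in the levels of the 4 genes was not tested.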

How the data were processed

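RNA-seq counts per gene were deposited by the authors, 1 table for each of 12 libraries (4 groups of 3), as raw counts for 48672 Ensembl IDs. The build was mm10 and the tools bcl2fastq, TopHat2, Bowtie2 and DESeq, per the submitters' processing notes. Versions, annotation and use of strand are not given in the sources read. Symbols and coordinates came from GENCODE on the same build and matched 48312 IDs. The accessibility libraries were not analysed here.

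Genes were filtered with edgeR 4.0.16 (R 4.3.3) by group, leaving 15704, and scaled by TMM. CPM uses the scaled totals. All 12 libraries entered 1 quasi-likelihood fit with 4 group means and 8 residual degrees of freedom, with Benjamini-Hochberg adjustment over all genes and a threshold of 0.05. Fits were tested on simulated data. DESeq2 1.42.0, other scalings and filters and the leaving out of each library were alternatives. Total counts, between 4129919 and 8038717, limit precision for genes near 0.

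The members and lists were chosen with earlier results of these data known. Of each related list, the genes past the threshold and otherwise the 2 with the highest mean level were to be named. Likeness was Pearson's r of log2 CPM with a prior count of 2. Replicate numbers were not treated as pairs, since same-numbered libraries had correlations between -0.08 and 0.12. Sequences are from RefSeq, with the chromosome of Hbegf left out of all windows. No window was available for F2rl1, so windows are shown for 2 of the 4 genes used here. Of the 5 genes listed, 1 is not reported here.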

Additional observations from a re-analysis of the deposited data

How the results depend on the processing

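Leaving out 1 library, the count of genes called ran between 0 and 133 for Bcl6KO against WT at stage 0 (3 with all libraries), 0 and 1 at stage 1 (0), 0 in every fit for the difference between the stages (0), 7 and 277 between the stages in Bcl6KO cells (106) and 20 and 139 in WT cells (68). For the related genes it ran between 0 and 2 in Bcl6KO cells (1) and 0 and 1 in WT cells (0). DESeq2 called 924 genes at stage 0, 20 at stage 1, 130 for the difference, 1309 between the stages in Bcl6KO cells and 368 in WT cells, and of the related genes 6 in Bcl6KO cells and 1 in WT cells. With no filter on low counts, the counts were 103 at stage 0, 11 at stage 1, 7 for the difference, 309 between the stages in Bcl6KO cells and 142 in WT cells, and of the related genes 2 in Bcl6KO cells and 1 in WT cells. A fit of only the 2 groups compared called 0 at stage 0, 3 between the stages in Bcl6KO cells and 0 of the related genes there. The replicate block called 1 at stage 0 and 39 between the stages in Bcl6KO cells, and with it the fitted difference for Csf1 was 0.26. The cause of these shifts was not tested.

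For the 4 genes, no genotype test at stage 1 passed under any alternative run. Their fitted values at stage 0, and the differences built on them, come from group means under the limit of detection, depend on the prior count and measure no effect; they are given here only because some changed sign. At stage 0 these were -3.54 for Csf1 and 0.05 for F2rl1 without the first Bcl6KO stage 0 library. For Csf1 at stage 1 the fold change was -0.43 without the second WT library and -0.15 without the third Bcl6KO library, and for the difference between the stages 3.64 without the first Bcl6KO stage 0 library. Leaving out 1 library, the fitted values ran between -3.54 and 1.32 for Csf1 and -1.14 and 0.05 for F2rl1 at stage 0, and for Csf1 between -0.43 and 0.51 at stage 1 and between -1.20 and 3.64 for the difference. At stage 1 they ran between 0.31 and 2.05 for Hbegf, 1 and 2.44 for F2rl1 and 1.51 and 2.16 for Paqr8. Stage differences kept their direction in all 20 alternatives for each gene. The genes were chosen on this contrast and their stage groups did not overlap, so that outcome was set in advance and carries no weight. Depth limits what can be said of stage 0, where the 4 genes rest on 0 to 7 counts per library.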
